A study of Mus musculus with 21 samples.

Results

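The 39 genes described here encode factors of the complement system and of blood coagulation, 17 of complement and 22 of coagulation and fibrinolysis. They were taken from a list of gene symbols, and all 39 were found among the 24391 genes counted in each of 21 RNA-seq libraries. The libraries were made from total RNA of the brain, liver and skin of newborn (P0) C57BL/6 mice (C57BL/6J in the study's methods). Each tissue had 2 libraries of Jak1 KI +/- mice and 5 of WT mice. The study's methods count 2 KI and 5 WT mice, and libraries of different tissues may come from the same mouse. The KI mice were heterozygous for a missense substitution in the tyrosine kinase Jak1, histidine to aspartic acid, together with silent changes in the next codons, made with CRISPR/Cas9 in zygotes and passed on by a mosaic founder male. The WT mice carried neither the substitution nor the silent changes, and no treatment is given for either group. The change was present in the germline, so that every cell of the 3 tissues carried it, and a base substitution cannot be seen in counts per gene. The comparison of KI and WT mice asks what this Jak1 allele does to each tissue, and the comparison of tissues asks where these genes were transcribed at birth.

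Complement is a cascade of plasma proteases and their substrates that is started by C1, by lectins such as the mannose-binding lectins, or by the alternative pathway, and that meets at C3 and ends with the pore made by C5 to C9. Coagulation is a second cascade of proteases, which ends with thrombin turning fibrinogen into fibrin, and the plasmin made from plasminogen dissolves fibrin again. Most of these proteins are secreted into the blood by hepatocytes, whereas von Willebrand factor is made by endothelium and megakaryocytes, properdin by leukocytes and tissue factor by cells that surround vessels. Fibrinogen, C3 and several others are acute-phase proteins, whose genes respond to interleukin-6 through JAK1 and the transcription factor STAT3.

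The stretch before the start site of a gene is where STAT factors and the liver factors HNF1, HNF4 and C/EBP commonly bind. RefSeq promoter sequences (GRCm38.p6, from 250 bases before to 50 bases after a start site) were at hand for 30 of the 39 members. Motifs were searched on both strands as TTCNNNGAA for STAT, GAAANNGAA for the interferon-stimulated response element, TTAATNATT for HNF1, TGNACTTTG for HNF4 and TTGNNNAAT for C/EBP. The STAT letters stood in the windows of 6 of the 30 members, C8a, F9, Fga, Fgb, Masp2 and Pros1 (20%), and in 9.55% of all 27025 genes with a window. HNF1 letters stood in 4 members, C4bp, F13b, F8 and Hc (13.3%, against 1.72% of all genes), and HNF4 letters in 1 member, F9 (3.33% against 1.64%). C/EBP letters stood in 7 members, C3, C8a, C9, F12, F9, Fga and Hc (23.3% against 13.1%). The interferon element was found in none of the 30 members and in 9.76% of all genes. These matches describe letters and do not show binding. The next lines give the 250 bases before the start for the 3 fibrinogen genes, the most abundant transcripts of the group per kilobase. They also give those of C9, C6 and Pros1, which were among the members called higher in KI liver. Of the other members called there, Cfp and F13a1 held none of the 5 motifs, and C4b, C2 and Kng1 had no window at hand. Capitals mark matches to STAT or C/EBP. The STAT match lies from base -234 to -226 of Fga, -162 to -154 of Fgb and -92 to -84 of Pros1, counted from the start site. The capitals of C9, and the second run of capitals of Fga, mark C/EBP letters (in Fga read on the other strand), and C6 and Fgg held none of the 5 motifs.
Fga, chr3:83025903-83026152, plus strand: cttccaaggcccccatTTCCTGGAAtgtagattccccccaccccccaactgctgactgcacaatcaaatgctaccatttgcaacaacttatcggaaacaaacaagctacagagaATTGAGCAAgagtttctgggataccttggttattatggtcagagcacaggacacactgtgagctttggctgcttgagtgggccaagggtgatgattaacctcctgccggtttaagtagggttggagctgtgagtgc
Fgb, chr3:83049864-83050113, minus strand: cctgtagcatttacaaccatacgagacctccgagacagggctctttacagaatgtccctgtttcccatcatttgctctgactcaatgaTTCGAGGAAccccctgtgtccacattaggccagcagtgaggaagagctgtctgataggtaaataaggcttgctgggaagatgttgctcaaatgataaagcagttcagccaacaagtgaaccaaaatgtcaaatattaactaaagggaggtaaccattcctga
Fgg, chr3:83007474-83007723, plus strand: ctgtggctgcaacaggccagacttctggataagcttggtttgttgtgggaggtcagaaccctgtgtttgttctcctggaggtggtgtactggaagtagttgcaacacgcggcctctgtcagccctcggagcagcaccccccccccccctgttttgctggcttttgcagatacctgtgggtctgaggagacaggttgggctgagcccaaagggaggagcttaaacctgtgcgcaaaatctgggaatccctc
C9, chr15:6445096-6445345, plus strand: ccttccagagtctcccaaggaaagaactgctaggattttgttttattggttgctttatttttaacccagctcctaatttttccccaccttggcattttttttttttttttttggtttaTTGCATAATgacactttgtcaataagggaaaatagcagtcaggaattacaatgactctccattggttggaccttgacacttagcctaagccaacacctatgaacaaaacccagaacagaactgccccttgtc
C6, chr15:4726960-4727209, plus strand: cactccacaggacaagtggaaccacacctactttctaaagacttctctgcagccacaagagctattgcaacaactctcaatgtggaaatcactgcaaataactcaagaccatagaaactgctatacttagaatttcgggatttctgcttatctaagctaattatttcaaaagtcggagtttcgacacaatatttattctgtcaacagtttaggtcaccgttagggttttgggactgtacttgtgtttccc
Pros1, chr16:62854057-62854306, plus strand: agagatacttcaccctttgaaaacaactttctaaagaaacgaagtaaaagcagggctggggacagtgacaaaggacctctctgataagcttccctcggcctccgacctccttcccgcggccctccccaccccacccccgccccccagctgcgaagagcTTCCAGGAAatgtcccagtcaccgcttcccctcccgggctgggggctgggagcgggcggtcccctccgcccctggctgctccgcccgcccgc

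Between 26549326 and 38388133 reads were counted on genes per library. Levels are given as CPM (counts of a gene relative to all counts on genes, with TMM scaling over all 21 libraries), and 3 counts correspond to at most 0.140 CPM in a liver, 0.0932 in a skin and 0.0951 in a brain. The tissue labels were checked with marker genes. The summed level of 10 hepatocyte markers was 227326 to 284183 CPM in the livers, 6.12 to 36.1 in the skins and 2.75 to 13.9 in the brains. Keratinocyte markers summed to 753 to 14456 CPM in the skins and neuron markers to 5585 to 7771 in the brains. In bulk tissue, fewer cells of a type and less RNA per cell cannot be told apart. All p-values measure the spread between these few mice.

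In WT newborns, transcripts of most members were found almost entirely in the liver. Of the 39 members, 25 were liver-restricted, defined as a mean of at least 1 CPM in WT liver and at least 100 times the mean of either other tissue. Another 7 were liver-predominant (10 to under 100 times the next tissue), 4 were shared (highest in liver, under 10 times the next tissue) and 3 were higher outside the liver. All 39 members reached 1 CPM in every WT liver. In one edgeR fit of the 15 WT libraries, 38 members were called higher in liver than in brain and 1 was called lower (adjusted p under 0.1), where 40.2% of all 17071 genes tested were called higher and 43.3% lower. Against skin, 36 members were called higher in liver and 3 lower, where 32.5% of all genes were called higher and 39.8% lower. The fit counted the 15 libraries as independent, although those of different tissues may come from the same mouse. The median log2 difference of the members was 10.43 against brain and 10.60 against skin, and that of all genes -0.06 and -0.10.

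**Figure D1:**
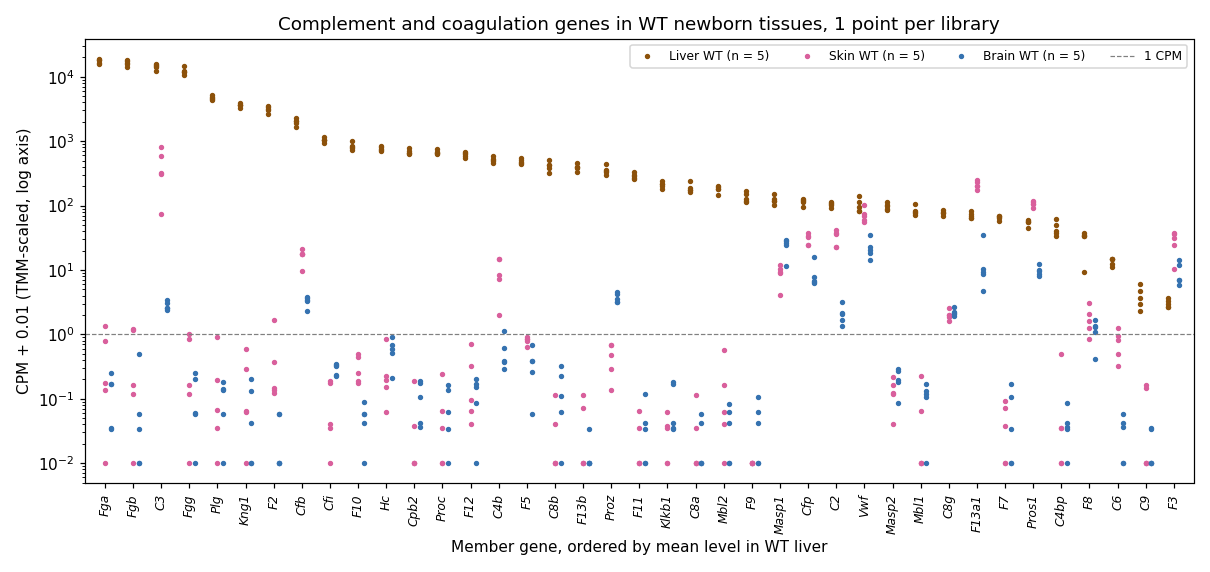
Level of each of the 39 members in the WT libraries of liver, skin and brain, 1 point per library (n = 5 per tissue), on a log axis of CPM + 0.01, with genes ordered by their mean in WT liver. All 39 lie above 1 CPM (dashed line) in the livers, whereas in skin and brain 27 members are not above it in every library of either tissue.

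The 3 chains of fibrinogen, the precursor of fibrin, led the group. They are neighbours on chromosome 3 (NCBIM37, mm9; Fgg at chr3:82811781-82818975, Fga at chr3:82830075-82838036 and Fgb at chr3:82846169-82853725). In WT liver, Fga was counted at 15548, 18110, 16303, 18853 and 18205 CPM, Fgb at 13989, 16448, 15665, 17798 and 18225 and Fgg at 10711, 11931, 12062, 12242 and 14489. Together they took 3.27% ± 0.189 (SD, n = 5) of all counts on genes in WT liver and 4.15% ± 0.263 (SD, n = 2) in KI liver. Per kilobase of exon, Fgb was highest at 9991 ± 1038 CPM per kb (SD, n = 5), followed by Fgg at 6256 ± 698 and Fga at 5934 ± 479, the last pair differing by less than their spread. C3, the central component of complement, was next at 2810 ± 257 CPM per kb, and Plg, which encodes plasminogen, came after it at 1724 ± 115. The values in the WT livers were 12296, 14178, 15199, 14710 and 15722 CPM for C3 and 4408, 4563, 5210, 4645 and 4919 CPM for Plg. At the other end per kilobase stood F3, which encodes tissue factor, at 1.62 ± 0.242 CPM per kb, and C9, the pore-forming end of the complement cascade, at 1.54 ± 0.577.

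The liver-restricted genes comprised the mannose-binding lectins Mbl1 and Mbl2 and the lectin protease Masp2, the alternative pathway protease Cfb, the terminal components Hc, C8a and C8b, and the complement inhibitors C4bp and Cfi. Of coagulation they held the vitamin K-dependent F2, F7, F9, F10 and Proc, the cofactor F5, the contact factors F11, F12, Klkb1 and Kng1, the fibrinogen chains, F13b, Plg and Cpb2. The ratio of WT liver to the next tissue ran from 119 in Cfb to 36571 in Fga. In skin and in brain, 24 of the 25 had a mean under 1 CPM, Cfb being the exception in both. Albumin, the main hepatocyte product and not a member, stood in WT skin at 0.00688% of its WT liver level and in WT brain at 0.00139%. The fibrinogen chains had 0.00273% to 0.00342% of their liver level in skin and 0.000674% to 0.000865% in brain, below albumin in both tissues. Whether such traces are transcribed in skin or brain was not tested. The counts of Masp2 and Klkb1 are uncertain, since 54.9% of the Masp2 exon bases overlap exons of Tardbp on the opposite strand, which these libraries did not keep apart, and 10.5% of those of Klkb1 overlap exons of Cyp4v3 on the same strand.

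Outside the liver, 12 of the 39 members were detected, that is, were at 1 CPM or more in every WT library of a tissue. There were 11 in skin and 11 in brain, with 10 in both, C4b in skin alone and Proz in brain alone. F3, F13a1 and Pros1 were higher in skin than in liver (log2 difference of liver minus skin -3.21, -1.59 and -0.97, adjusted p from edgeR 4.83e-07, 0.00141 and 2.69e-06). F3 was also higher in brain than in liver (liver minus brain -1.59, adjusted p = 3.10e-04), and it was higher in skin than in brain (log2 difference 1.62, adjusted p = 2.32e-04). F3 in WT skin stood at 38.1, 31.5, 24.6, 36.7 and 10.4 CPM, in WT brain at 5.80, 14.1, 7.03, 11.8 and 7.07 and in WT liver at 3.32, 3.66, 2.62, 2.99 and 2.62. The liver values all lay below those of brain and skin, and brain and skin overlapped. F13a1, the transglutaminase subunit that crosslinks fibrin and that macrophages and platelets carry, stood at 254, 175, 204, 229.7 and 204 CPM in WT skin, 64.8, 83.1, 74.1, 68.4 and 63.8 in WT liver and 4.71, 34.3, 8.79, 9.42 and 10.2 in WT brain. Pros1, the cofactor of activated protein C, stood at 92.3, 115, 104, 105 and 119.6 CPM in skin, 56.3, 58.0, 54.8, 59.8 and 44.2 in liver and 8.56, 12.3, 10.1, 8.20 and 9.61 in brain, with no overlap between the tissues.

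The 4 shared genes were Vwf, Cfp, C2 and Masp1. Vwf, which encodes von Willebrand factor, had the smallest gap between liver and skin. It stood at 95.8, 113, 83.7, 142 and 81.6 CPM in WT liver and 56.5, 69.0, 72.9, 59.8 and 101 in WT skin (log2 difference 0.53, standard error 0.228, adjusted p = 0.0520 from edgeR), so that the libraries overlapped, and at 14.2, 34.8, 22.4, 20.6 and 18.2 in WT brain. Cfp, which encodes properdin, the stabiliser of the alternative pathway convertase, stood at 94.8, 119.5, 126, 120.1 and 115 CPM in liver, 33.5, 24.6, 24.6, 33.0 and 37.0 in skin and 6.48, 6.82, 7.75, 6.36 and 15.8 in brain. The order was liver, skin and brain without overlap. C2, the protease of the classical pathway convertase, stood at 92.2, 109.5, 102, 114 and 108 CPM in liver, 37.3, 22.8, 36.2, 22.5 and 42.5 in skin and 1.36, 3.16, 2.17, 1.67 and 2.09 in brain. Masp1, a lectin pathway protease, was the only shared gene with brain as its second tissue, at 100.4, 125, 119, 152 and 119 CPM in liver, 26.1, 29.4, 28.2, 24.3 and 11.6 in brain and 8.98, 9.16, 10.3, 11.9 and 4.15 in skin (skin minus brain -1.43, adjusted p = 1.28e-04). In WT 5 Masp1 was lowest in both skin and brain.

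C3 was liver-predominant, yet per kilobase it was the highest member in WT skin, at 82.3 ± 55.8 CPM per kb (SD, n = 5). C3 in the WT skins stood at 579.8, 320.3, 822, 74.0 and 315 CPM, with WT 4 far below the others. In WT brain C3 stood at 2.43, 3.40, 2.57, 3.04 and 2.57 CPM. C4b, the classical pathway component C4, stood at 14.6, 8.39, 14.8, 1.99 and 7.13 CPM in WT skin, again lowest in WT 4, and at 0.607, 1.12, 0.382, 0.359 and 0.285 CPM in WT brain. Cfb, the alternative pathway protease, stood at 17.4, 18.0, 21.4, 9.63 and 17.6 CPM in skin and 3.32, 3.40, 3.82, 3.73 and 2.31 CPM in brain, with the lowest skin once more WT 4. C8g, the gamma chain of C8, stood at 2.59, 1.98, 1.88, 1.99 and 1.63 CPM in skin and 2.67, 2.25, 2.12, 2.03 and 1.93 CPM in brain with overlap, whereas C8a and C8b, which encode the other chains of the same protein, were at most 0.137 CPM on average in either tissue. Proz, the vitamin K-dependent protein Z, stood at 3.13, 4.31, 3.16, 4.50 and 3.52 CPM in WT brain and at most 0.676 CPM in WT skin. C2, C3, C4b, Cfb, Cfp, Pros1 and F13a1 were higher in skin than in brain, and Masp1 and Proz higher in brain (each called by edgeR in the same fit), while the skin minus brain difference of C8g was -0.13 (standard error 0.133, adjusted p = 0.378). Of the remaining liver-predominant genes, F8 averaged 1.76 CPM in WT skin and 1.16 in WT brain, and C6 and C9 averaged under 1 CPM in both.

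In the liver, 5 complement and 3 coagulation genes were more abundant in Jak1 KI mice than in WT mice. edgeR called these 8 of the 39 members higher, C4b, Kng1, C6, C9, Cfp, C2, F13a1 and Pros1, and none lower, where 3.89% of the 14966 genes tested were called higher and 1.68% lower. The 8 are 20.5% of the members. Counting an unadjusted p under 0.05 gave 19 members higher and 1 lower, beside 1421 and 1258 of all genes tested, and the Wald test of DESeq2 also called none lower. In 16 members the KI livers exceeded each of the 5 WT livers, and in 1, F11, they were lower than each, where 12.1% of all genes lay above and 12.7% below. The median log2 fold change was 0.18 over the members and -0.02 over all genes tested. Of the 17 complement members 5 were called, with a median of 0.34, and of the 22 coagulation members 3 were called, with a median of 0.09. By tissue class, 1 of the 25 liver-restricted members was called, Kng1, and 7 of the 14 others. Together the 39 members took 7.19% ± 0.0758 (SD, n = 2) of the counts on genes in KI liver and 5.88% ± 0.264 (SD, n = 5) in WT liver. In a fit of all 21 libraries none of the 8 was called, with log2 fold changes close to those of the liver fit (C4b 0.78, C9 1.51, Kng1 0.51). With 1 KI liver left, its spread is taken to be that of the WT livers. Without KI 2 the log2 fold changes were 0.72 for C4b, 0.71 for C6 and 0.52 for Kng1. Without KI 1 they were 0.89, 0.72 and 0.55. Of the 8 members, 5 were called without WT 1 or without WT 3.

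**Figure D2:**
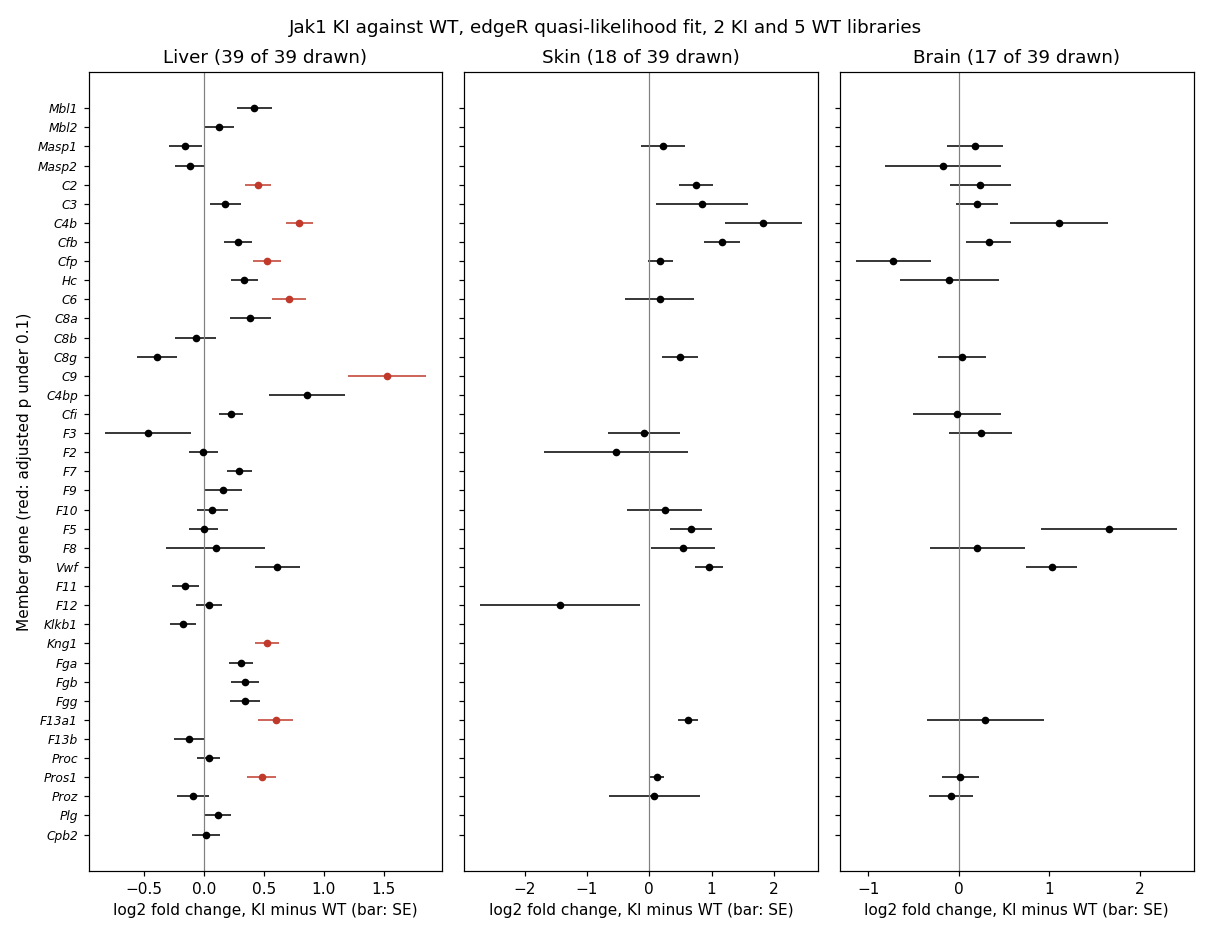
Log2 fold change of KI over WT for each member that passed the filter on low counts, with its standard error as the bar, in liver (39 members), skin (18) and brain (17), from the edgeR fit of 2 KI and 5 WT libraries per tissue. The 8 members with an adjusted p under 0.1, all in liver, are drawn in red to the right of 0, the horizontal scales differ between panels, and the fibrinogen chains are left out in skin, where they passed the filter through WT 4 and WT 5.

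Of the classical pathway, C4b and C2 were called. C4b stood at 838 and 935 CPM in the KI livers and at 498, 502, 537, 457 and 585 in the WT livers, with every KI value above every WT value (log2 fold change 0.80, standard error 0.113, adjusted p = 0.00992 from edgeR). C2 stood at 157 and 127 CPM against 92.2, 109.5, 102, 114 and 108, also without overlap (log2 fold change 0.45, standard error 0.109, adjusted p = 0.0667 from edgeR). C4b, C2 and the neighbouring Cfb lie in the same stretch of chromosome 17 (C4b at chr17:34865325-34880827, Cfb at chr17:34993319-34999463 and C2 at chr17:34999549-35035397, all on the minus strand), with 85 bases between Cfb and C2. Cfb stood at 2454 and 2380 CPM in KI liver and 1684, 1937, 2092, 2035 and 2274 in WT liver, and was not called (log2 fold change 0.29, standard error 0.119, adjusted p = 0.254 from edgeR). C3, which these convertases cleave, stood at 14311 and 18007 CPM against 12296, 14178, 15199, 14710 and 15722, with overlap (log2 fold change 0.18, standard error 0.127, adjusted p = 0.508 from edgeR). C4b has a close relative in the C4a locus nearby, and 23.5% of the 75-base windows of its transcript also occurred there. C4a itself was called higher (log2 fold change 0.63), so the split of reads between this pair is uncertain. Exons of C2 also overlap those of Zbtb12 on the other strand, over 3.97% of the C2 exon bases.

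Of the alternative and terminal pathways, Cfp, C6 and C9 were called. Cfp stood at 173 and 155 CPM in KI liver against 94.8, 119.5, 126, 120.1 and 115 (log2 fold change 0.52, standard error 0.115, adjusted p = 0.0502 from edgeR). C6, which joins C5b in the first step of the membrane attack complex, stood at 22.0 and 22.0 CPM against 12.4, 14.9, 14.7, 14.8 and 11.2 (log2 fold change 0.71, standard error 0.141, adjusted p = 0.0343 from edgeR). C9, which forms the ring of that complex, had the largest fold change of the members at a low level, 9.30 and 13.2 CPM against 2.32, 6.00, 4.77, 2.95 and 3.63 (log2 fold change 1.53, standard error 0.324, adjusted p = 0.0441 from edgeR). None of these 3 overlapped between KI and WT livers. Hc, which encodes C5, did not overlap either but was not called (871 and 1052 against 762, 733, 800, 706 and 838 CPM, adjusted p = 0.165 from edgeR). C8a had a log2 fold change of 0.39, C8b of -0.07 and C8g of -0.39, none of them called. C4bp, the inhibitor that binds C4b, was high in KI 2 alone, at 46.5 and 115 CPM against 62.9, 40.4, 34.0, 37.9 and 49.4 (adjusted p = 0.200 from edgeR). Among the lectin pathway members none was called, and of these Mbl1 had the largest change, with 111 and 109 CPM against 76.3, 79.1, 82.0, 70.5 and 107 (log2 fold change 0.42, adjusted p = 0.182 from edgeR).

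Of coagulation, Kng1, F13a1 and Pros1 were called. Kng1, which encodes kininogen, the source of bradykinin and a cofactor of contact activation, stood at 5155 and 5246 CPM in KI liver against 3664, 3637, 3693, 3309 and 3957 in WT liver (log2 fold change 0.52, standard error 0.0990, adjusted p = 0.0293 from edgeR). The WT values spanned a narrow range and none reached the KI values. Its relative Kng2 rose too (log2 fold change 0.58, adjusted p = 0.0256 from edgeR), and 10.6% of the 75-base windows of the Kng1 transcript occurred in Kng2. F13a1 stood at 87.1 and 125 CPM against 64.8, 83.1, 74.1, 68.4 and 63.8, and KI 1 lay only just above the highest WT liver (log2 fold change 0.60, standard error 0.145, adjusted p = 0.0684 from edgeR). Its log2 fold change was 0.32 without KI 2 and 0.85 without KI 1. Pros1 stood at 68.8 and 82.1 CPM against 56.3, 58.0, 54.8, 59.8 and 44.2 (log2 fold change 0.48, standard error 0.124, adjusted p = 0.0813 from edgeR). Vwf was not called at 148 and 164 CPM against 95.8, 113, 83.7, 142 and 81.6; its KI values exceeded each WT value (log2 fold change 0.61, standard error 0.188, adjusted p = 0.130 from edgeR).

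**Figure D3:**
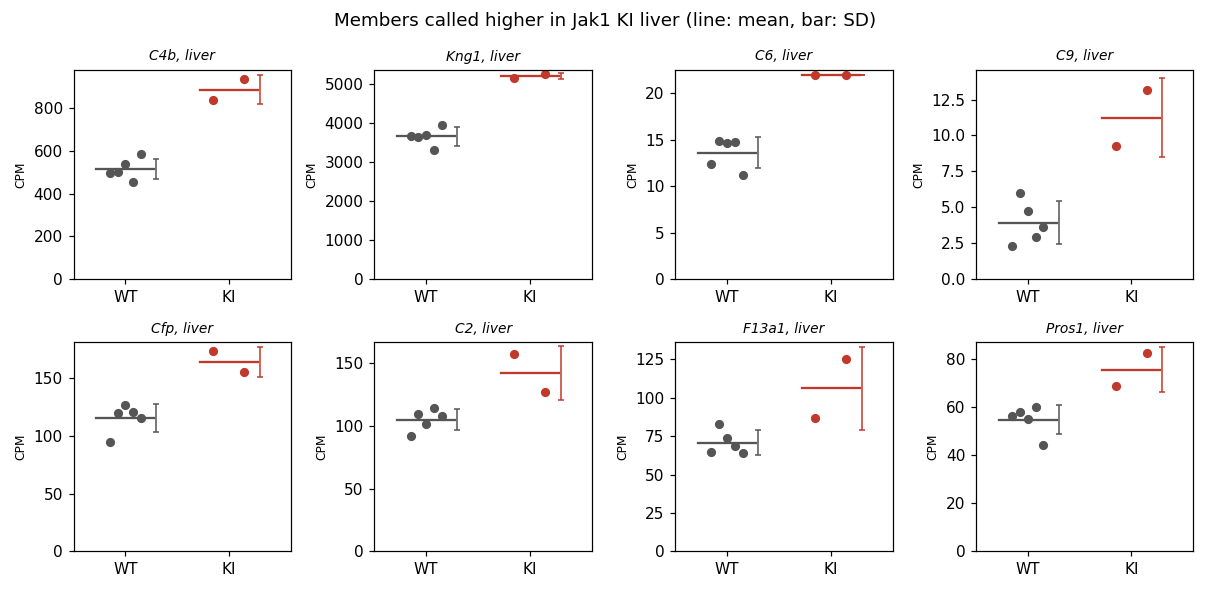
CPM of the 8 members called higher in KI liver, 1 point per library, with the group mean as a line and its SD as a bar (5 WT and 2 KI livers). In all 8 panels both KI points lie above every WT point, from C9 at 9.30 and 13.2 CPM to Kng1 at 5155 and 5246 CPM.

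The fibrinogen chains, the best known acute-phase genes of the group, were not called. Fga stood at 22014 and 20575 CPM in KI liver, Fgb at 21547 and 19624 and Fgg at 16565 and 14218, with log2 fold changes of 0.31, 0.34 and 0.34 and adjusted p-values from edgeR of 0.153, 0.166 and 0.202. Fga and Fgb did not overlap between the groups, and KI 2 was below WT 5 in Fgg. The Wald test of DESeq2 called Fga and Fgb, among 13 members in all. The vitamin K-dependent clotting factors F2, F7, F9 and F10 had log2 fold changes from -0.003 to 0.30, and F2, which encodes prothrombin, stood at 3265 and 3006 CPM against 2688, 3093, 3468, 3183 and 3446 with a standard error of 0.121. F5, F11, F12, Klkb1, F13b, Proc, Proz, Plg and Cpb2 had log2 fold changes between -0.17 and 0.12. Cfi had a log2 fold change of 0.23, Mbl2 of 0.13, Masp1 of -0.15, Masp2 of -0.11 and F3 of -0.46, and none of these was called. For F8, made by endothelium, the log2 fold change was 0.10 with a standard error of 0.414, and in WT 5 it stood at 9.30 CPM against 33.3 to 37.0 in the other WT livers, where the endothelial markers summed to 275 CPM in WT 5 and 558 to 709 in the others.

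Marker sums of other cell types were also compared between KI and WT in the newborn liver, which is still a blood-forming organ. The summed macrophage markers were 1226 and 1045 CPM in the KI livers and 745 to 1015 in the WT livers, with 4 of the 8 markers called higher. Neutrophil markers summed to 8682 and 10288 CPM against 5612 to 7224, with 2 of 7 called higher. The erythroid sum was lower, 3749 and 3650 CPM against 4386 to 5992, with 2 of the 12 markers called lower, although the 6 globin genes in that list held at most 2 counts in a library. Megakaryocyte markers summed to 676 and 855 CPM against 368 to 709, endothelial markers to 613 and 714 against 275 to 709 and hepatocyte markers to 233560 and 227326 against 228908 to 284183, all with overlap or, for the hepatocyte sum, with KI 2 just below the lowest WT liver. Of the last 3 lists, 1 of 6 megakaryocyte markers was called higher, 1 of 10 hepatocyte markers higher and 1 lower, and 0 of 7 endothelial markers either way. The part of these shifts in the level of Cfp, F13a1 and the other called members, and of Vwf, was not tested.

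Other genes of the pathway were called in the same comparison. Of 72 such genes counted, 69 were tested in liver and 16 were called, 15 higher and 1 lower. Of all genes tested, 3.89% were called higher and 1.68% lower. The median log2 fold change was 0.28 over the 69 and -0.02 over all genes. Among those higher were the soluble classical pathway components C1qa, C1qb and C1ra, and C4a, the relative of C4b. Serping1, the C1 inhibitor, also rose (917 and 823 CPM against 558 to 679, log2 fold change 0.49), as did the leukocyte receptors C5ar1, Itgam and Itgb2. Among the inhibitors and receptors of clotting and fibrinolysis, Serpina10, the protein Z-dependent protease inhibitor, rose by 0.88 on the log2 scale, A2m by 0.85, Plaur by 0.73 and the platelet genes Itga2b and F2rl3 by 0.83 and 0.68. Serpina5, the protein C inhibitor, was the 1 that fell, at 2.67 and 3.60 CPM against 6.84 to 11.8 (log2 fold change -1.67, adjusted p = 0.0153 from edgeR). Protein Z itself, Proz, had a log2 fold change of -0.09 and protein C, Proc, of 0.04.

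In the skin, 21 of the 39 members passed the filter on low counts and edgeR called none, where 0.0247% of 16163 genes were called higher and 0% lower. With an unadjusted p under 0.05 there were 5 members higher and none lower, beside 467 and 271 of all genes tested. DESeq2 called 2 members, Cfb and Vwf, among 97 genes called higher and 12 called lower. In 6 members both KI skins lay above all WT skins, where 5.47% of all genes did so (3.84% lay below), and of the 21 members tested none lay below. Masp2, which was not tested, had no count in the KI skins and at most 0.207 CPM in the WT skins. The median log2 fold change was 0.22 over the 21 members tested, 0.37 over 18 of them without the fibrinogen chains, which passed the filter through WT 4 and WT 5, and -0.03 over all genes. Vwf stood at 122 and 161 CPM in KI skin and 56.5, 69.0, 72.9, 59.8 and 101 in WT skin (log2 fold change 0.96, standard error 0.220, adjusted p = 0.680 from edgeR). F13a1 stood at 288 and 377 CPM against 254, 175, 204, 229.7 and 204 (log2 fold change 0.62, standard error 0.164, adjusted p = 0.756 from edgeR).

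The convertase genes of chromosome 17 lay on the same side in skin. Cfb stood at 29.4 and 47.0 CPM against 17.4, 18.0, 21.4, 9.63 and 17.6 (log2 fold change 1.16, standard error 0.290, adjusted p = 0.731 from edgeR), C4b at 22.6 and 45.3 against 14.6, 8.39, 14.8, 1.99 and 7.13 (log2 fold change 1.83, standard error 0.620, adjusted p = 0.973 from edgeR) and C2 at 48.3 and 61.9 against 37.3, 22.8, 36.2, 22.5 and 42.5 (log2 fold change 0.75, standard error 0.268, adjusted p = 0.999 from edgeR). Each was higher in KI 2 than in KI 1, and the KI and WT values did not overlap. F5 stood at 1.07 and 1.49 CPM against 0.619, 0.908, 0.826, 0.775 and 0.830 (adjusted p = 0.999 from edgeR). C3 varied from 74.0 CPM in WT 4 to 822 in WT 3 among the WT skins, and the KI skins at 439 and 1107 CPM fell in and above that range. Macrophage markers summed to 460 and 614 CPM in the KI skins and 302 to 430.1 in the WT skins, endothelial markers to 999.9 and 1361 and 735 to 1228, and megakaryocyte markers to 128 and 173 and 94.3 to 123. Keratinocyte markers summed to 11792 and 753 CPM in the KI skins and 1262 to 14456 in the WT skins, where WT 4 was highest. The part of all these cells in the levels of Vwf, F13a1 and the complement genes was not tested. According to the study's methods, the skin RNA was also of lower integrity than the liver RNA.

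Cfp, C8g, Masp1 and Pros1 overlapped between KI and WT skin, with KI values of 29.1 and 40.9, 2.42 and 3.35, 11.2 and 9.91 and 115 and 122 CPM and log2 fold changes of 0.18, 0.50, 0.22 and 0.13. F3 stood at 41.9 and 11.8 CPM in the KI skins (log2 fold change -0.09, standard error 0.575), and it was low in the same libraries in which the keratinocyte markers were low. That sum was 753 CPM in KI 2 and 1262 in WT 5, where F3 stood at 11.8 and 10.4 CPM, and 3177 to 14456 CPM in the other 5 skins, where F3 stood at 24.7 to 41.9 CPM. Fga stood at 0, 0.165, 0.129, 1.32 and 0.769 CPM in the WT skins and at 0.0549 and 0.0311 in the KI skins, and no fold is given since the KI values are below that of 3 counts. Albumin stood at 25.9 CPM in WT 4 and 13.2 in WT 5, and at 2.11 to 4.48 in the other skins. Of the 72 other pathway genes 54 were tested in skin and none was called by edgeR, with a median log2 fold change of 0.42. With an unadjusted p under 0.05 there were 13 higher and none lower, beside 467 and 271 of all 16163 genes tested. The remaining members tested in skin, C6, F2, F8, F10, F12 and Proz, were at most 3.48 CPM in any library.

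In the brain, 17 members passed the filter and edgeR called none, where 0% of 16322 genes were called higher and 0% lower. The unadjusted p was under 0.05 for 1 member, Vwf, which was higher, beside 457 genes higher and 1275 lower in all. The Wald test of DESeq2 called Vwf as the 1 member among 56 genes higher and 458 lower. Both KI brains lay above all WT brains in 2 members, Vwf and Cfb, and below them in 1, Cfp, where 17.7% and 11.2% of all genes did so. The median log2 fold change was 0.20 over the members and -0.02 over all genes. Vwf stood at 48.7 and 46.1 CPM in the KI brains and 14.2, 34.8, 22.4, 20.6 and 18.2 in the WT brains (log2 fold change 1.02, standard error 0.284, adjusted p = 0.304 from edgeR). It was called when WT 5 was left out, as were 672 genes higher and 1026 lower in all, and its log2 fold change was 0.92 to 1.26 over 14 alternatives. Endothelial markers summed to 232 and 249.6 CPM in the KI brains and 144 to 239 in the WT brains, with WT 2 and WT 5 close to the KI values.

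**Figure D4:**
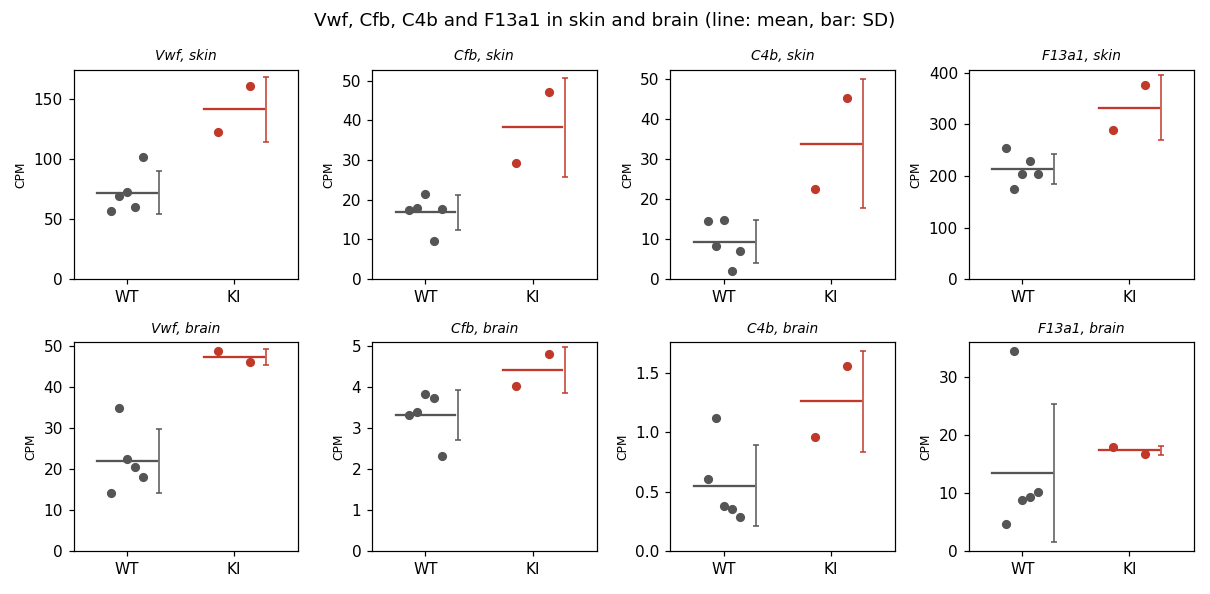
CPM of Vwf, Cfb, C4b and F13a1 in skin (top row) and brain (bottom row), 1 point per library, with the group mean as a line and its SD as a bar (5 WT and 2 KI libraries). The KI points lie above all WT points in the skin panels and for Vwf and Cfb in brain, and in brain C4b and F13a1 overlap with WT 2.

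Cfp stood at 4.98 and 6.12 CPM in the KI brains against 6.48, 6.82, 7.75, 6.36 and 15.8 (log2 fold change -0.73, standard error 0.412, adjusted p = 0.594 from edgeR), and WT 5 lay far above the other WT brains. Cfb stood at 4.02 and 4.80 CPM against 3.32, 3.40, 3.82, 3.73 and 2.31 (log2 fold change 0.33, adjusted p = 0.690 from edgeR). C4b stood at 0.958 and 1.56 CPM against 0.607, 1.12, 0.382, 0.359 and 0.285 and with edgeR the log2 fold change was 1.11, its standard error 0.538 and the adjusted p 0.520. F13a1 stood at 17.9 and 16.8 CPM in the KI brains, and in WT 2 it was 34.3 CPM against 4.71 to 10.2 in the other WT brains, where fibroblast markers summed to 744 CPM in WT 2, 164 to 286 in the other WT brains and 389 and 415 in the KI brains. Macrophage markers had the same order, with sums of 80.3 CPM in WT 2, 34.6 to 48.6 in the other WT brains and 62.3 and 62.4 in the KI brains. The part of macrophages and of meningeal or other connective tissue in F13a1 was not tested. Masp1 stood at 28.6 and 28.6 CPM, C2 at 2.73 and 2.48, C3 at 3.23 and 3.57, C8g at 2.01 and 2.77, F3 at 12.1 and 10.8, Pros1 at 10.7 and 10.2 and Proz at 3.54 and 3.89 in the KI brains, all overlapping with WT and with log2 fold changes between -0.09 and 0.24. Of the low members tested, F5 differed most (log2 fold change 1.66, standard error 0.752, adjusted p = 0.483 from edgeR), at 0.503 and 1.83 CPM against 0.0485, 0.374, 0.382, 0.669 and 0.254, and Masp2, Hc, Cfi and F8 had values between -0.17 and 0.20. Of the other pathway genes 52 were tested in brain and none was called. The unadjusted p was under 0.05 for F2rl1, which was higher, and Gp5, which was lower, beside 457 and 1275 of all genes tested.

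**Figure D5:**
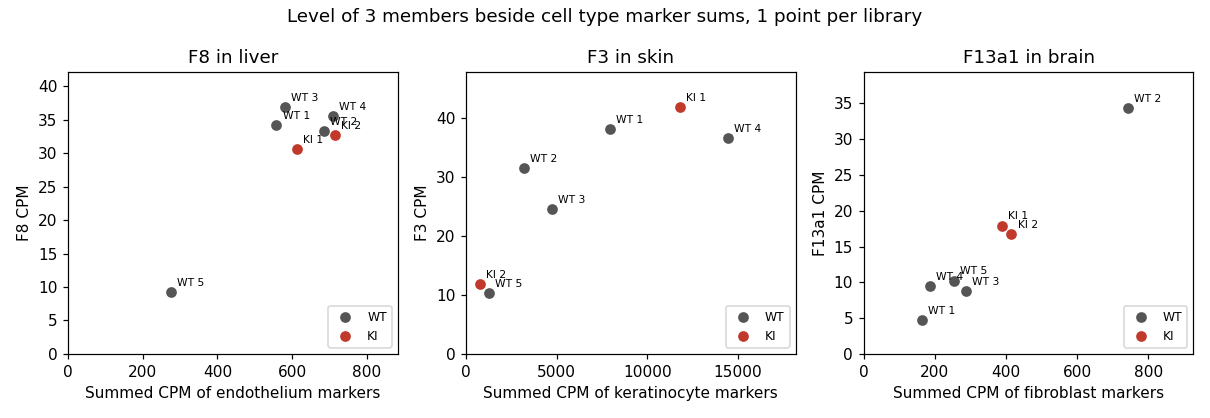
Level of F8 in liver, F3 in skin and F13a1 in brain against the summed CPM of endothelium, keratinocyte and fibroblast markers, 1 point per library (5 WT, gray; 2 KI, red). The lowest F8 is in WT 5, the liver with the lowest endothelial sum, the lowest F3 values are in KI 2 and WT 5, the skins with the lowest keratinocyte sums, and the highest F13a1 is in WT 2, the brain with the highest fibroblast sum. The brain macrophage sum, which is not drawn, is also highest in WT 2.

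A last comparison asked if KI minus WT was unequal in 2 tissues, as the difference of both contrasts in one edgeR fit of the 21 libraries, in which libraries that may come from the same mouse counted as independent. No member was called between liver and skin (0.0997% of 18062 genes called), between liver and brain (2.81% called) or between brain and skin (0% called). Of the members that had passed the filter on low counts in both tissues of a contrast, the unadjusted p was under 0.05 for 4 of 21 between liver and skin (C8g, Cfb, Fga and Fgg), 2 of 17 between liver and brain (Cfp and F5) and 1 of 14 between brain and skin (Cfb), and no other tool was run. Fga and Fgg were near 0 in the skins other than WT 4 and WT 5. For C4b the effect in liver minus that in skin was -1.07 (standard error 0.690, adjusted p = 1.00), and for F13a1 -0.06 (standard error 0.637, adjusted p = 1.00). For Vwf it was -0.38 (standard error 0.396, adjusted p = 1.00) between liver and skin and -0.51 (standard error 0.397, adjusted p = 0.575) between liver and brain. For Cfp, called in liver and lowest in the KI brains, liver minus brain gave 1.14 (standard error 0.400, adjusted p = 0.170), and for F5 -1.74 (standard error 0.577, adjusted p = 0.148). A call in liver that was absent in skin or brain is therefore not shown to be particular to liver. Kng1 and C9 did not pass the filter in skin or brain, so that their KI effect in liver has no counterpart there, and C6 passed it in skin alone.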

How the data were processed

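Total RNA of newborn brain, liver and skin was sequenced as paired-end TruSeq v2 libraries, which do not keep the strand. According to the study's methods, TopHat2 placed the trimmed reads on mm9. The submitters' processing notes also name HTSeq and DESeq. For each library the authors deposited raw counts per gene symbol, with 5 summary lines, which were left out of all fits. The counting mode and annotation are not given in the sources used here. Of the reads aligned to 1 place, 80.5% to 87.6% were counted on genes.

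The test was edgeR 4.0.16's quasi-likelihood test on counts (filterByExpr, TMM, two-sided, Benjamini-Hochberg over all genes tested, called under 0.1) in R 4.3.3, KI against WT in each tissue, the tissues among WT libraries, and the difference of KI effects over all 21 libraries. Alternatives were DESeq2 1.42.0, its size factors, no filter, a fit over the 3 tissues together and a block for replicate number. Others were a Y-linked covariate (Y-linked transcripts mark KI 2 and WT 3 as male), a limit of 0.05 on the adjusted p and other limits for the tissue classes. Each library was also left out. In comparisons between tissues, all libraries of the same genotype and number were left out together, although the labels do not state that these pair. The tests of KI against WT in each tissue, and of the difference of KI effects between liver and skin, were checked on simulated counts. WT liver against WT skin was simulated with no changed gene. The other contrasts were not simulated. Exon lengths came from GENCODE vM1 on NCBIM37 (mm9).

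The members, gene lists and motifs were chosen with earlier results of these data known. Values in every library are given for members called in a KI comparison, for members in which KI and WT did not overlap, with a log2 fold change of at least 0.5, for the 5 highest per kilobase in WT liver and for those detected in WT skin or brain. Other values are given for members at the end of a range. Of the other pathway genes, those called are named except for 1 that is not reported here, and F2rl1 and Gp5 were named after their values were seen. Same-numbered KI and WT libraries correlated with r of -0.152 to 0.248 across genes after group means were removed. Same-numbered WT libraries of different tissues had r of 0.00320 to 0.231. Differently numbered libraries were not compared, so these values cannot decide whether the numbers pair the samples. The labels do not state a pairing, and the main fits used none. Litters and sexes are not given. Figures were drawn with matplotlib 3.10.9.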

Additional observations from a re-analysis of the deposited data

Results flagged for a closer look

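Of 61 sets of 5 WT values, 1 for each tissue in which a member was detected, 5 held a library far from the other 4 by Dixon's test, which flags about 1 set in 20 by chance. F8 stood at 9.30 CPM in liver WT 5 and at 33.3 to 37.0 CPM in the other WT livers. C8a stood at 243 CPM in the same liver and at 163 to 186 CPM in the others. In brain WT 5, Masp1 stood at 11.6 CPM against 24.3 to 29.4 CPM, and Cfp at 15.8 CPM against 6.36 to 7.75 CPM. F13a1 stood at 34.3 CPM in brain WT 2 and at 4.71 to 10.2 CPM in the other WT brains. No member had a KI effect that differed between tissues at the level of the test.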

How the results depend on the processing

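The tissue pattern held under every alternative tried: the numbers of members called between WT liver and the other tissues, of liver-restricted members and of members detected in skin and brain stayed within 1.5 times their main values. In liver, the count of 8 members called higher was 13 with the Wald test of DESeq2, 4 at an adjusted p under 0.05, 4 with Y-linked expression as a covariate (C2, C4b, C6 and Kng1) and 0 in a fit of all 21 libraries. Over all genes the higher and lower calls in liver were 582 and 251 in the main comparison, 839 and 623 with DESeq2, 297 and 112 with the covariate and 156 and 86 in the fit of all 21 libraries. Leaving out a library gave 0 to 11 higher calls: 0 without KI 2, 3 without KI 1 (C4b, C4bp and F13a1), 5 without WT 1 or WT 3, and 11 without WT 5, where all genes gave 49 higher and 7 lower calls without KI 2 and 197 and 35 without KI 1. Such a fit takes the lone KI liver to vary like the WT livers, and F13a1 then had a log2 fold change of 0.32 without KI 2 and 0.85 without KI 1. The count of members lower in liver ranged from 0 to 1, C8g being called without KI 1. In skin, DESeq2 called 2 members higher (97 of all genes) and the fit of all 21 libraries 1, Cfb (22 of all genes). In brain, DESeq2 called 1 (56 of all genes higher), the fit of all 21 libraries 2 (F5 and Vwf, 173 of all genes higher), and leaving out a library gave 0 to 1, Vwf without WT 5 (672 of all genes higher). Between liver and brain, leaving out the libraries of 1 WT replicate number in every tissue gave 0 to 1 members with a differing KI effect. The cause of these changes was not tested, and a fit without a library also holds fewer mice.

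With the replicate number as a block, which the labels do not support as a pairing, 7 members were called higher in liver, 5 of them also in the main comparison, 2 in brain (F5 and Vwf) and 0 in skin. All genes then gave 471 higher and 346 lower calls in liver, 783 and 1382 in brain and 0 in skin. Over 17 single results and 14 alternatives each, 187 of 238 values kept their side of the threshold, 41 lost a call and 10 gained one, and none changed direction. C4b in liver lost its call in 2 alternatives, with a log2 fold change of 0.72 to 0.89 and an adjusted p of 8.04e-08 to 0.660, and Pros1 lost it in 9 (0.35 to 0.62). Depth was not equal for all members: 3 counts are worth at most 0.140 CPM, and the members at the lowest levels in skin and brain, 18 and 22 of the 39, were not tested there.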
